A study of Mus musculus with 2 samples.

Results

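The genes described here are 8 microRNA genes at the Meg3 end of the imprinted Dlk1-Dio3 region of mouse chromosome 12: Mir770, Mir673, Mir493, Mir337, Mir540, Mir665, Mir341 and Mir370. They were picked by gene identifier from the genes of this stretch and are 8 of the 2202 microRNA genes in the count files. The plus-strand neighbours Mir3070a, Mir3070b, Mir1188 and Gm23912, each with fewer counts than any of the 8 in both libraries, are not among them. MicroRNA-seq libraries were made from the total RNA of male B6CASTF1/J mice aged 36 days, from tissue labelled as a layer of the hippocampus, as biological replicates 1 and 2. The mice are F1 animals of C57BL/6J and CAST/EiJ, no treatment is named, and both libraries belong to this single group. Each replicate has a tissue sample of its own under a shared donor label, and the labels do not say how many animals a sample holds, so a p-value here reflects these 2 libraries and no wider spread between animals. There is no second condition, so the design gives the level of each gene, the comparison of genes with each other and the comparison of the libraries. No level was tested against another, since an exact sign-flip test over 2 libraries cannot give a p below 0.5 (two-sided).

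The Dlk1-Dio3 region is a cluster of imprinted genes in which protein-coding genes such as Dlk1, Rtl1 and Dio3 are expressed from the paternal chromosome. The long noncoding RNAs Meg3, Rtl1 antisense, Rian and Mirg, together with the microRNAs carried along them, are expressed from the maternal chromosome. Brain is among the tissues where these maternal transcripts are best known. F1 mouse names put the maternal strain first, which makes the C57BL/6J allele the maternal one, but the counts hold no allele information and imprinting was not measured. A microRNA gene yields a hairpin that is cut into a 5p and a 3p arm, and bases 2 to 8 of an arm, its seed, lead the pairing with target messages.

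The 8 genes lie on the plus strand within 54.6 kb of mm10. Mir770 (ENSMUSG00000076451.1, chr12:109563692-109563785) lies within Meg3, in an exon of 1 and an intron of the other 3 of the 4 Meg3 transcripts that span it. Mir673 (ENSMUSG00000076316.1, chr12:109571990-109572080) starts 263 bases past the annotated end of Meg3. Mir493 (ENSMUSG00000077025.2, chr12:109580233-109580315) lies between Meg3 and Rtl1 and in no other annotated gene. Mir337 (ENSMUSG00000065526.4, chr12:109585789-109585885), Mir540 (ENSMUSG00000072900.2, chr12:109586080-109586146) and Mir665 (ENSMUSG00000076313.1, chr12:109586314-109586407) form a tight group in the same interval, with 194 bases between Mir337 and Mir540 and 167 between Mir540 and Mir665. Mir341 (ENSMUSG00000070101.1, chr12:109611500-109611595) and Mir370 (ENSMUSG00000065433.1, chr12:109618258-109618336) lie in introns of Rian, 6662 bases apart.

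The mature arms are printed because the seeds show how far the 8 genes resemble each other as regulators. All 8 genes matched RefSeq (GRCm38.p6), with 16 arms, shown 5′ to 3′ with the seed in capitals.
mmu-miR-770-5p: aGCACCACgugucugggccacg
mmu-miR-770-3p: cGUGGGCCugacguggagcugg
mmu-miR-673-5p: cUCACAGCucugguccuuggag
mmu-miR-673-3p: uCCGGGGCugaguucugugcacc
mmu-miR-493-5p: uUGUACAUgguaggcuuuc
mmu-miR-493-3p: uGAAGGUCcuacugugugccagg
mmu-miR-337-5p: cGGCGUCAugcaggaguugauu
mmu-miR-337-3p: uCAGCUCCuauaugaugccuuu
mmu-miR-540-5p: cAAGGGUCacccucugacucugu
mmu-miR-540-3p: aGGUCAGAggucgauccugg
mmu-miR-665-5p: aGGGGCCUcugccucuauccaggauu
mmu-miR-665-3p: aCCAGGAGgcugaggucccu
mmu-miR-341-5p: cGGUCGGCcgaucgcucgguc
mmu-miR-341-3p: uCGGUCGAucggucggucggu
mmu-miR-370-5p: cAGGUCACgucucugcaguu
mmu-miR-370-3p: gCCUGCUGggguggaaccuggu

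The 16 arms carry 16 different seeds, so no arm can be grouped with another of these genes by its seed. Of the 16 seeds, 3 occur in any other of the 1679 mature mouse microRNA names in the RefSeq table. The seed of mmu-miR-370-5p recurs in mmu-miR-1193-3p, whose gene Mir1193 lies further along the same region and had 171 counts in replicate 1 and 463 in replicate 2. The seed of mmu-miR-673-5p recurs in mmu-miR-6985-3p, and that of mmu-miR-540-3p in mmu-miR-6915-5p. The genes of those 2 relatives were scarce, with 13 and 18 counts for Mir6985 and 10 and 25 for Mir6915. Of the 16 arms, 5 begin with U. The shares of all 1679 names with a recurring seed or a first U were not computed. The counts are per gene, so which arm of each hairpin was present in the tissue is not known from these data.

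Hairpins are printed for the members whose sequence stands out or bears on the counting, in transcript direction with the mature arms in capitals.
Mir770: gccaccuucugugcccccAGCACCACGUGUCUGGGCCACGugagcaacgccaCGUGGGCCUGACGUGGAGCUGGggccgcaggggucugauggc
Mir341: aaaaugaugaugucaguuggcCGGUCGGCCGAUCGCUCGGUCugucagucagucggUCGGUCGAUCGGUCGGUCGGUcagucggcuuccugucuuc
Mir337: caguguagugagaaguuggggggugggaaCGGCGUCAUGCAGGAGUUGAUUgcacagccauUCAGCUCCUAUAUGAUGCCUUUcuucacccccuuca
Mir3544: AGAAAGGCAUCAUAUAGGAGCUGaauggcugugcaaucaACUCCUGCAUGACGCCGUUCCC

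The Mir770 hairpin was 70.2% G or C, and 65 of the 2202 annotated hairpins were higher (median 50.8%). It holds CACGUG, which reads the same on both strands, 3 times, while 22 of the 2202 hairpins (0.999%) hold this motif at all and no other holds it 3 times. The Mir341 hairpin is built of a short tandem repeat. Within it CGGUC occurs 7 times on the transcribed strand, the only strand searched, against 55 hairpins (2.50%) with 1 or more and no other with 7. It holds 12 CpG dinucleotides, and 41 of the 2202 hairpins hold more. These motifs were chosen after the sequences were seen and describe the letters alone. The GC share of the other 6 hairpins ran from 52.6% in Mir337 to 61.5% in Mir673. Predicted folding energy per base was lowest in Mir770 (-0.619 kcal/mol) and highest in Mir341 (-0.438 kcal/mol). No member shared a stretch of 20, 18 or 16 bases with an annotated microRNA gene elsewhere, apart from Mir337 with the gene on its other strand. The rest of the genome was not searched for copies.

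Replicate 1 gave 4404040 own-strand counts over all microRNA genes and replicate 2 gave 5279877, from 12462653 and 15241166 reads. A count of 0 allows up to 3 counts, equal to 0.681 CPM (counts per 1000000 own-strand counts) for replicate 1 and to 0.568 for replicate 2. The limits and intervals printed reflect counting error, as reads without molecular identifiers may be PCR copies. The tissue label was checked against marker microRNAs: the 9 neuronal markers, led by Mir132, summed to 41741 and 48456 CPM. The liver marker Mir122 stood at 30.2 and 27.7 CPM, and the 5 muscle markers summed to 98.3 and 108 CPM, nearly all of it Mir206. Mir124a-3 among the neuronal markers and Mir1a-1, Mir133a-1 and Mir133a-2 among the muscle markers were at 0 in both libraries. Reads that fit several places enter no count, so a low count of a gene with copies, such as these 4 and the other Mir124a genes, does not show that its microRNA was scarce. In bulk tissue, a smaller number of expressing cells and less RNA per cell cannot be told apart.

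All 8 genes were detected, each with at least 315 counts in each library, whereas 411 of the 2202 microRNA genes had 10 or more counts in both. They spanned a wide range, from 71.0 ± 16.1 CPM for Mir493 to 10525 ± 7081 CPM for Mir770 (mean ± SD, n = 2, as for every level below). Their summed share of all counts was 2.17% (2.16 to 2.19, 95% Wilson interval) in replicate 1 but 1.08% (1.07 to 1.09) in replicate 2, a mean of 1.63% ± 0.774. Mir770 alone made up 71.4% of their counts in replicate 1 and 51.1% in replicate 2. Without Mir770, the other 7 genes took 0.622% and 0.529%, from 27377 and 27912 counts.

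Mir770, which lies inside Meg3, stood far above the other 7 genes. The counts are per gene and do not separate reads of the microRNA from reads of Meg3 RNA over its hairpin. Whether any of the latter were present was not tested. The other microRNA gene annotated inside Meg3, Mir1906-1, had 0 counts in both libraries, as did Mir1906-2, a gene of the same name family. Reads that fit several places enter no count, so a 0 for a gene with a copy does not show that its microRNA was scarce. Mir770 had 68403 counts in replicate 1 and 29133 in replicate 2, or 15532 and 5518 CPM. This placed it 11th among all genes in replicate 1 and 41st in replicate 2. By mean it was 5th of the 59 plus-strand microRNA genes that run from Mir770 to Gm27299, called the region below. Gm27299 lies 1110 kb from the start of Mir770, past the end of Mirg, and had 0 counts in both libraries. The lower library of Mir770 still exceeded the higher library of Mir337, the next of the 8, and the ratio of the 2 means was 5.34. The genes next to it in mean level were Mir29a (10528 ± 2605 CPM), a microRNA abundant in the mature brain, and Mir22 (9721 ± 8170 CPM).

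The tight group of Mir337, Mir540 and Mir665 took 0.295% ± 0.0329 of all counts, and its members differed strongly. Mir337 had 8920 counts in replicate 1 and 10129 in replicate 2 (2025 and 1918 CPM), close values in both libraries. Mir540 had 4184 and 3365 counts (950 and 637 CPM), with replicate 1 the higher. Mir665 had 930 and 871 counts (211 and 165 CPM), and its libraries did not overlap those of the other 2 genes. The count ratio of Mir337 to Mir540 was 2.13 (2.05 to 2.21, 95% exact binomial) in replicate 1 but 3.01 (2.89 to 3.13) in replicate 2. Mir540 exceeded Mir665 by 4.50 times (4.19 to 4.84) and 3.86 times (3.58 to 4.17). The intervals of the 2 libraries do not overlap for either pair. Library preparation can capture some sequences better than others, which was not measured here, and a ratio of counts is therefore not a measured ratio of molecules. A mature microRNA is read whole, and the counts were not divided by length.

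Mir673 and Mir493, between Meg3 and the tight group, both stood below Mir770 and Mir337. Mir673 had 2955 and 2854 counts (671 and 541 CPM), nearly equal numbers from libraries of unequal depth. Mir493, which has been studied as a suppressor of metastasis in tumours, had 363 and 315 counts (82.4 and 59.7 CPM), the lowest of the 8 genes in both libraries. Mir673 exceeded Mir493 by 8.14 times in replicate 1 (7.30 to 9.10) and 9.06 times in replicate 2 (8.06 to 10.2), with intervals that overlap. Mir770 exceeded Mir673 by 23.1 times (22.3 to 24.0) in replicate 1 and by 10.2 times (9.82 to 10.6) in replicate 2. Mir337 exceeded Mir493 by 24.6 (22.1 to 27.4) and 32.2 (28.7 to 36.1) times. Of the 6 neighbouring pairs compared, only Mir673 and Mir493 had overlapping intervals in the 2 libraries.

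The Rian genes Mir341 and Mir370 were close to each other in level. Mir341, the gene with the tandem repeat, had 4997 and 6046 counts, or 1135 and 1145 CPM, the closest agreement between libraries among the 8 genes. Mir370, studied among other things for its part in liver lipid metabolism, had 5028 and 4332 counts, or 1142 and 820 CPM. Their count ratio, Mir341 over Mir370, was 0.994 (0.955 to 1.03) in replicate 1 and 1.40 (1.34 to 1.45) in replicate 2, so Mir341 was the higher gene in replicate 2 alone. Other microRNA genes beside them were scarce. Mir1188, 226 bases past Mir341 and also in an intron of Rian, had 230 and 193 counts, and Mir341 exceeded it by 21.7 and 31.3 times. Gm23912, 57 bases ahead of Mir370, had 2 counts in replicate 1 and 0 in replicate 2, both within what a count of 0 allows.

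**Figure D1:**
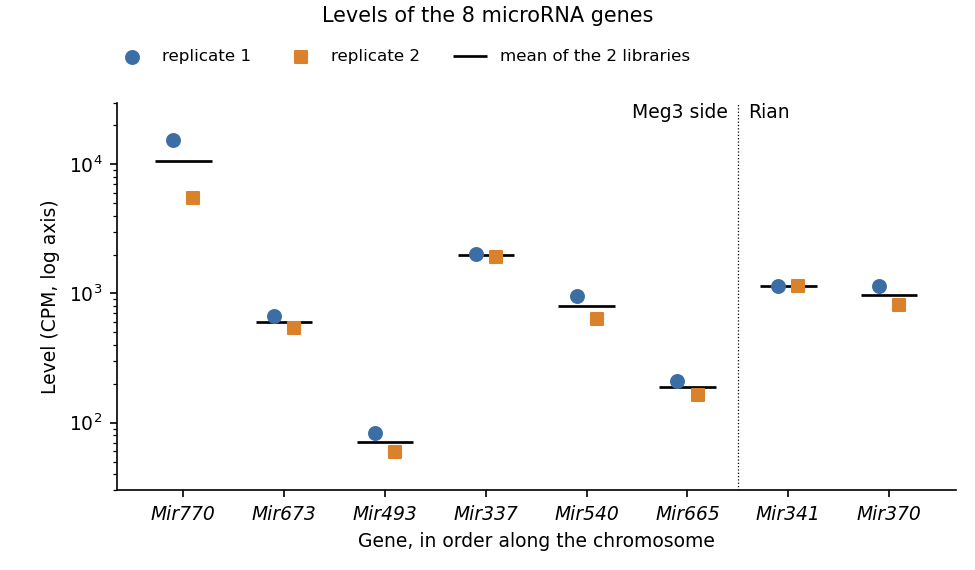
Level of each of the 8 genes in CPM (log axis) in replicate 1 (circles) and replicate 2 (squares), with the mean as a line, in order along the chromosome. Mir770 is the highest gene in both libraries and has the widest gap between them, 15532 against 5518 CPM, and Mir493 is the lowest.

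By mean level the order was Mir770, Mir337, Mir341, Mir370, Mir540, Mir673, Mir665 and Mir493. The ranges of the 2 libraries overlapped between Mir341 and Mir370, between Mir370 and Mir540 and between Mir540 and Mir673, so these neighbours in the order do not differ beyond the spread of the unpaired libraries. Within each library, however, Mir370 was above Mir540 and Mir540 above Mir673, and only Mir341 and Mir370 changed places. Those of Mir770 and Mir337, Mir337 and Mir341, Mir673 and Mir665, and Mir665 and Mir493 did not overlap. Among all genes, the nearest in mean level to Mir337 (1972 ± 75.7 CPM) was Mir409 of the same region at 1976 ± 1003 CPM, with Mir1839 next below. Mir341 (1140 ± 7.40 CPM) stood between Mir346 and Mir543, which also belongs to the region and had 1362 and 10364 counts. Mir370 (981 ± 227 CPM) stood between Mir140 and Mir532, Mir540 (794 ± 221 CPM) between Mir1983 and Mir181a-1, and Mir673 (606 ± 92.2 CPM) between Mir501 and Mir101b. Mir665 (188 ± 32.7 CPM) had Mir30c-2 above and Mir1306 below it, and Mir493 had Mir449a and Mir491. A like mean in 2 libraries says nothing of a like pattern across them, as the counts of Mir543 show.

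**Figure D2:**
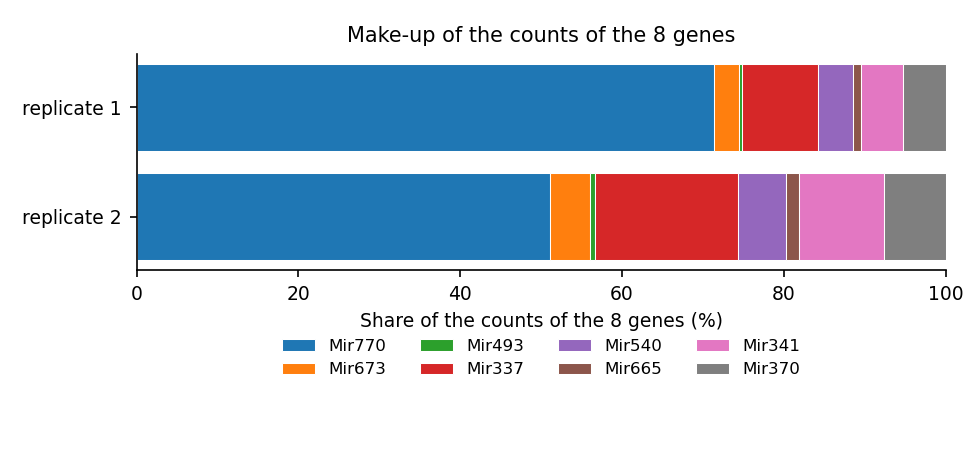
Share of the summed counts of the 8 genes held by each gene (%), 1 bar per library. Mir770 takes 71.4% of replicate 1 and 51.1% of replicate 2, and the segment of Mir337 is the next widest in both.

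The level of Mir337 rests on the strand column used. Mir3544 (minus strand, chr12:109585813-109585873) lies wholly within it on the other strand, and its 61-base hairpin is the reverse complement of a stretch of the Mir337 hairpin printed above. In the either-strand column Mir337 had 0 counts in both libraries, since reads there could belong to either gene and were set aside. In the own-strand column Mir337 had 8920 and 10129 counts and Mir3544 had 0 and 1. Mir337 reads alone amounted to 3.02% and 2.02% of all reads set aside in this way. The other 7 genes overlap no gene of the other strand, and their counts were identical in both columns. Elsewhere in the region, 6 more genes with 10 or more counts in both libraries (Mir136, Mir299a, Mir380, Mir376a, Mir539 and Mir409) overlap a microRNA gene of the other strand, and each had at most 1 either-strand count in each library. Opposite-strand counts of the 8 genes were 0, apart from 1 count for Mir337 in replicate 2.

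Replicate 2 was then compared with replicate 1, gene by gene, with the two-sided exact conditional binomial test. All 8 genes had 10 or more counts and were tested: 7 were lower in replicate 2 and 0 higher, and Mir341 did not pass the test. Over all 504 genes tested, 55.8% passed it, 32.5% higher and 23.2% lower. The median log2 ratio was -0.42 for the 8 genes and 0.05 for all tested genes. The 504 include genes with as few as 10 counts in total, where a difference passes less easily. With a minimum of 100 counts, 252 of 313 genes passed, 122 higher and 130 lower, and all 8 genes were lower. TMM was recomputed over those 313 genes, which also shifted the ratios. The log2 ratio of Mir341 went from -0.0040 to -0.14 and that of Mir770 from -1.51 to -1.64. Mir770 had the largest difference, a TMM-scaled log2 ratio of -1.51, with an adjusted p of the exact test below the smallest number that the calculation holds. Before TMM scaling, its CPM in replicate 1 was 2.81 times that in replicate 2. It ranked 1st of the 52 tested genes of the region, and 5th of all 504, from the lowest ratio. The other differences were smaller: 6 of the 8 genes lay within 1.5-fold, as did 317 of the 504.

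Among the remaining Meg3-side genes, Mir540 was lower at a log2 ratio of -0.59 (adjusted p = 2.41e-70, exact binomial test) and Mir493 at -0.48 (adjusted p = 3.67e-05, exact). Mir665 was lower at -0.37 and Mir673 at -0.33. Mir337 was lower at only -0.10 (adjusted p = 1.32e-05, exact), a difference that passed because its counts are large. In Rian, Mir370 was lower at -0.49 (adjusted p = 9.26e-61, exact), while Mir341 stood at -0.0040 (adjusted p = 0.927, exact). Mir341 turned to 0.013 with total-count scaling and passed the test at -0.14 with TMM over genes of 100 or more counts.

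The binomial test holds no spread between tissue samples, and edgeR estimated a coefficient of variation of 0.426 between these libraries. With a coefficient of 0.1 built into the test, 2 of the 8 genes were lower, Mir540 and Mir770, while 29.6% of all 504 genes passed, 19% higher and 10.5% lower. With 0.3 none of the 8 passed, against 2.78% of all genes, 2.58% higher and 0.198% lower. Marker sums moved between the libraries too: the 3 vessel wall markers, led by Mir126a, summed to 16250 CPM in replicate 1 and 43835 in replicate 2. These 3 did not move together. Mir126a (42849 and 200301 counts) and Mir145a (922 and 1270) were higher in replicate 2 by the binomial test. Mir143 (27794 and 29873 counts) was lower, at a log2 ratio of -0.17. The 2 choroid plexus markers summed to 684 and 1207 CPM, nearly all of it Mir204 (3007 and 6365 counts, against 5 and 9 for Mir211). The 3 oligodendrocyte markers summed to 5819 and 5662 CPM and did not move together either. Mir338 (10465 and 10877 counts) was lower, at a log2 ratio of -0.22. Mir219a-2 (15119 and 18950 counts) was higher, at 0.05, and Mir219a-1 (42 and 65 counts) did not pass the test. None of these 8 markers was at 0 in both libraries, and the part of these cell types in the differences of the 8 genes was not tested.

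Set beside the rest of the region, the 8 genes took 13.4% of the region's microRNA counts in replicate 1 and 7.38% in replicate 2. The Rtl1 antisense genes, next along the chromosome and led by Mir127 (56482 ± 1909 CPM), took 7.04% ± 0.343 of all counts, and 2 of the 5 tested were higher and 3 lower, with a median log2 ratio of -0.09. The distal cluster that starts at Mir379, led by Mir487b (13968 ± 1882 CPM), took 6.74% ± 0.0300. Of its 40 genes 36 were tested, and 21 of these were higher in replicate 2 and 11 lower. Their median log2 ratio was 0.36. The distal genes and the 8 genes here had medians of opposite sign, but the difference between these lists was not tested. All of these counts stand beside 32.5% higher and 23.2% lower over all genes tested. All 59 genes of the region together gave 16.2% and 14.6% of the counts, with 23 of the 52 tested genes higher and 23 lower.

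**Figure D3:**
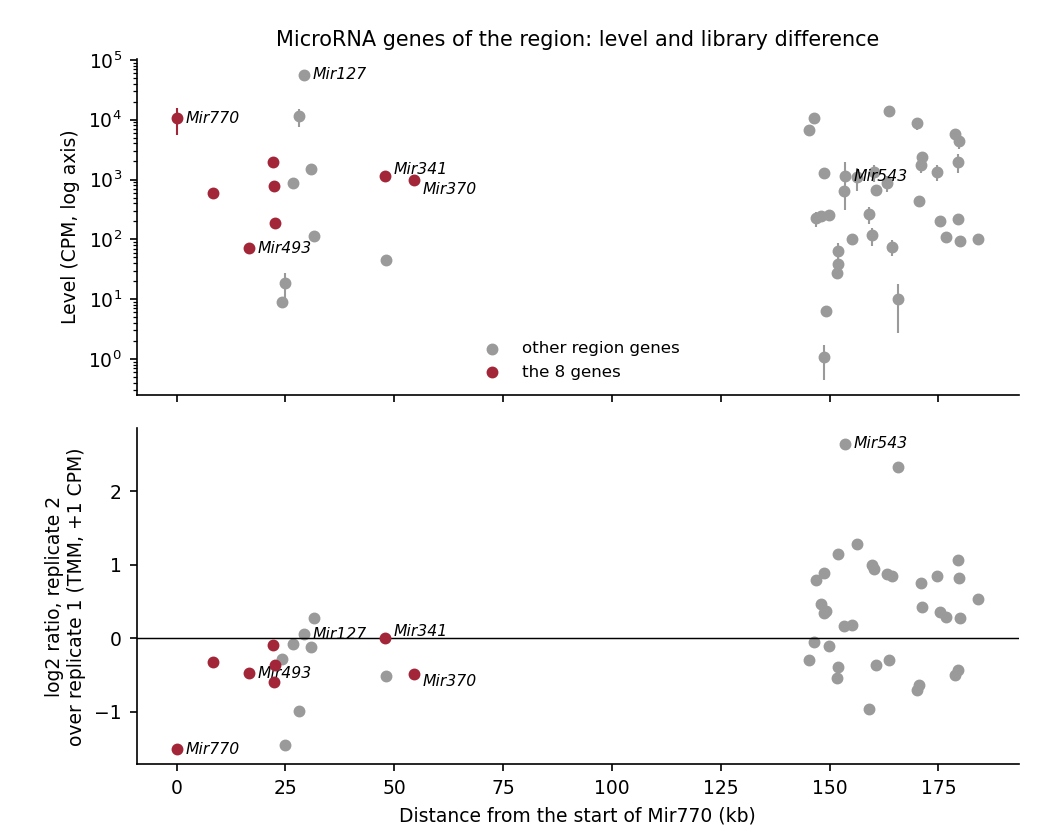
Upper panel, level in CPM (log axis, mean as a point and the 2 libraries as the ends of the line) and lower panel, log2 ratio of replicate 2 over replicate 1, against distance from the start of Mir770 in kb, for the 52 tested microRNA genes of the region. The 8 genes (red) lie at or below 0 in the lower panel with Mir770 the lowest at -1.51, while 21 genes of the distal cluster passed the test above 0.

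Scaled to the other genes of the region in place of TMM, an alternative chosen after seeing the data, 6 of the 8 genes were lower and none higher, while 55.6% of all 504 genes passed, 35.3% higher and 20.2% lower. Mir770 stood at -1.45 on this scale, Mir540 at -0.53, Mir370 at -0.43, Mir493 at -0.41, Mir665 at -0.31 and Mir673 at -0.26. Mir337 (-0.03) and Mir341 (0.060) did not pass the test. These 2 genes had the ratios nearest to 0 under TMM as well.

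**Figure D4:**
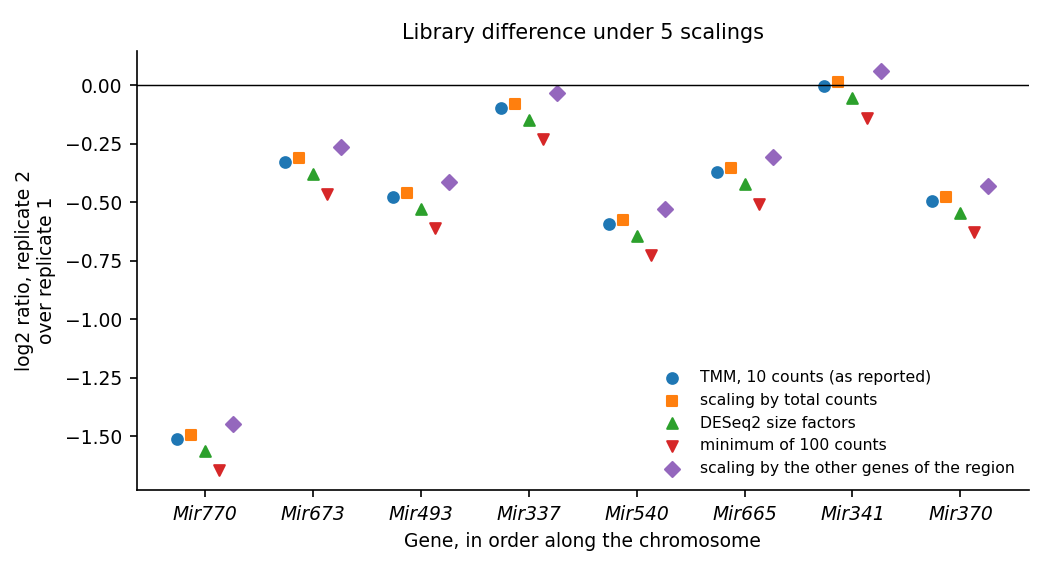
Log2 ratio of replicate 2 over replicate 1 for each of the 8 genes under 5 scalings, the minimum of 100 counts also being TMM. Mir770 lies near -1.5 under each, and Mir341 is the gene whose ratio lies on both sides of 0.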

How the data were processed

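MicroRNA-seq was deposited for 2 hippocampus libraries labelled biological replicates 1 and 2, as raw read counts per microRNA gene. Per the notes deposited with the files, the authors used the mm10 assembly and GENCODE M21. An aligner is not given in the sources used here. Both files carry no header, and the either-strand, own-strand and opposite-strand columns were recognised from their values. Lines that name no gene (64.7% and 65.4% of reads) were left out. Multimapping reads enter no gene's count, and the 5p and 3p arms of a gene cannot be separated.

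CPM is the own-strand count per 1000000 own-strand counts of the library. Each of 504 genes with a total of at least 10 counts was compared between the libraries by an exact conditional binomial test, two-sided (scipy 1.17.1), TMM-scaled (edgeR 4.0.16, R 4.3.3) and adjusted over all of them by Benjamini-Hochberg, with 0.05 as the threshold. The test covers counting error and compares libraries, not conditions. edgeR's quasi-likelihood test was not used because there is 1 group. The binomial test was tested on simulated data before use, with libraries scaled by genes known to be unchanged. That check did not cover TMM scaling, nor counts with more spread than the test assumed. Log2 ratios are replicate 2 over replicate 1 with 1 CPM added. Alternatives were either-strand counts, total-count and DESeq2 1.42.0 scaling, minimums of 1 and 100 counts, a prior of 0.5 CPM, built-in coefficients of variation of 0.1 and 0.3, each library alone, uniquely placed reads as the denominator and, added after seeing the data, scaling by the other genes of the region.

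Sequences come from RefSeq (GRCm38.p6, the mm10 build), where 8 of 8 members matched, and folding from ViennaRNA 2.7.2. Scripts ran in Python 3.11.15 with matplotlib 3.10.9, pandas 2.3.3 and numpy 2.4.6. Genes named are the members, microRNA genes within 1000 bases of them, the highest gene of each stretch of the region, the genes next in level and those sharing a seed. The members and lists were chosen with earlier results of these data known.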

Additional observations from a re-analysis of the deposited data

How the results depend on the processing

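The direction of the library difference was the same under every alternative run for 7 of the 8 genes. The exception was Mir341, whose log2 ratio was 0.013 with total-count scaling, 0.051 with either-strand counts and 0.060 with scaling by the other genes of the region, against -0.0040 as reported. It passed the test in the same direction with a minimum of 100 counts (-0.14), and over its alternatives the adjusted p of the exact test ran from 9.64e-07 to 1. With a coefficient of variation of 0.1 built in, 2 of the 8 genes passed, both lower, and over all genes 149 passed, 96 higher and 53 lower. With 0.3 these counts were 0 and 0 for the 8 genes, and 14, 13 and 1 for all genes. A wider spread built into the test lets fewer genes pass by construction, and why the libraries differ was not tested. The share of the 8 genes was 0.575% without Mir770. In the either-strand column, where overlapping genes lose their reads and the total is smaller, the Rtl1 antisense share was 7.64% and that of the distal cluster 6.92%, and Mir337 had no value for its library ratio and a level of 0. With either library left out, the share of the 8 genes ran from 1.08% to 2.17% and the level of Mir770 from 5518 to 15532 CPM. No member shared a stretch of bases with a gene elsewhere at any length tried. Depth limits little here, since each of the 8 genes had at least 315 counts in each library, but 2 libraries limit every statement on spread. Conditions could not be compared in pairs because there is a single group. Genes are paired by library, but an exact sign-flip test over 2 libraries cannot give a p below 0.5 (two-sided).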

Other observations

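Mir3070a and Mir3070b, the other 2 plus-strand microRNA genes between Meg3 and Rtl1, were named after their values were seen. RefSeq gives both the same mature 5p arm. Reads that fit both genes enter neither count, so their low counts do not show that their microRNA was scarce. Mir3070a had 43 counts in replicate 1 and 42 in replicate 2 and did not pass the exact library test (adjusted p = 0.438). Mir3070b had 121 and 50 counts, a log2 ratio of -1.46 (adjusted p = 5.00e-11, exact), the nearest in the region to that of Mir770.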
